A study of Caenorhabditis elegans with 2 samples.

Results

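K12H4.5 is a protein-coding gene of the nematode Caenorhabditis elegans, and the DNA upstream of it carried the strongest ZTF-18 peak of the data set. It is 1 of 19973 protein-coding genes on the nuclear chromosomes. It was chosen by its peak signal, the highest in every deposited list, so its signal and rank are given as a description with no test. The data were 2 chromatin immunoprecipitation libraries of strain OP496, in which a stably expressed transgene encodes ZTF-18 with GFP and FLAG at its C-terminus. Both were made from whole young adult hermaphrodites, 64 hours after synchronization as starved L1 larvae following bleaching. The sample descriptions name an antibody to GFP, while the antibody label reads ztf-18. The labels number them as biological replicates 1 and 2 of the same condition. There was 1 group, with no second genotype, treatment or age, and the control alignment was not analysed here. The tag comes from a transgene rather than from untagged protein, and whole animals do not show which cells held it at the site.

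ZTF-18 is a zinc finger protein, a class in which short folds held by a zinc ion often contact DNA bases. Chromatin immunoprecipitation recovers DNA fragments crosslinked to the tagged protein, and a peak is a stretch where these fragments pile up over a control. Its summit is the position of highest pile-up. C. elegans genes often lie close together on one strand, and neighbours of this kind can be transcribed from a common promoter as an operon. Many worm transcripts also receive a spliced leader, so an annotated 5′ end need not be where transcription began.

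The gene model of K12H4.5 (WBGene00019680) covers 294 bp on the plus strand, chrIII:8044487-8044780 on WBcel235, the assembly that ce11 denotes. It has 1 exon with 97 codons before the stop and no annotated UTR, so its 5′ end is its start codon. RefSeq calls its product an uncharacterized protein. The summit lay at position 8043994, in the 1611 bp between K12H4.5 and K12H4.6. The 300 bases around it, chrIII:8043844-8044143 on WBcel235, plus strand, are printed because every list places the summit here. Capitals mark, from left to right, the 3 best positions of the recurring sequence described further on, each read on the minus strand.
K12H4.5 summit: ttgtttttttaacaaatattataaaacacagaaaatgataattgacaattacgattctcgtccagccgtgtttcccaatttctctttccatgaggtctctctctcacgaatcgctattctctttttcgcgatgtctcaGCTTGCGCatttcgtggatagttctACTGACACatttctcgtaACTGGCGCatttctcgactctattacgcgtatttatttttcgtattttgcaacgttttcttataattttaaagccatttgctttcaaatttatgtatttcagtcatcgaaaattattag

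The K12H4.5 peak had a signal of 11118 in the list pooled from both replicates. In replicate 1 alone the signal was 6350, and in replicate 2 alone it was 4817, a mean of 5583 ± 1084 (SD, n = 2). Replicate 1 had the higher signal over matched peaks in general, with a median ratio of 1.33, so the SD also holds that difference. The signal is the authors' own value per peak, on a scale that is not stated. It serves here to order peaks within a list, and quotients of signals describe the deposited values only. The peak held rank 1 of 26104 entries in replicate 1, of 27612 in replicate 2, of 30000 in the pooled list and of 2465 in the thresholded list. The list thresholded for reproducibility consisted of the 2465 strongest pooled entries, so its first rank repeats the pooled one.

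The lead of K12H4.5 over the peak of rank 2, which lies in the promoters of wip-1 and larp-1, was almost the same size in each replicate. The ratio of the signals was 1.24 in the pooled list, 1.24 in replicate 1 and 1.24 in replicate 2, with signals at that second peak of 8956, 5101 and 3896. The steps down from ranks 1 and 2 were of like size, since the K12H4.5 peak stood 2162 above rank 2 in the pooled list and rank 2 stood 2157 above rank 3. Only 11 thresholded entries, K12H4.5 among them, had more than 50% of its signal, and 200 of 2465 had more than 10%. These counts include entries off the nuclear chromosomes. The K12H4.5 signal was 71.8 times the median of the thresholded list, which was 154.8. Entries at the lower edge of that list had a signal of 93.6.

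**Figure D1:**
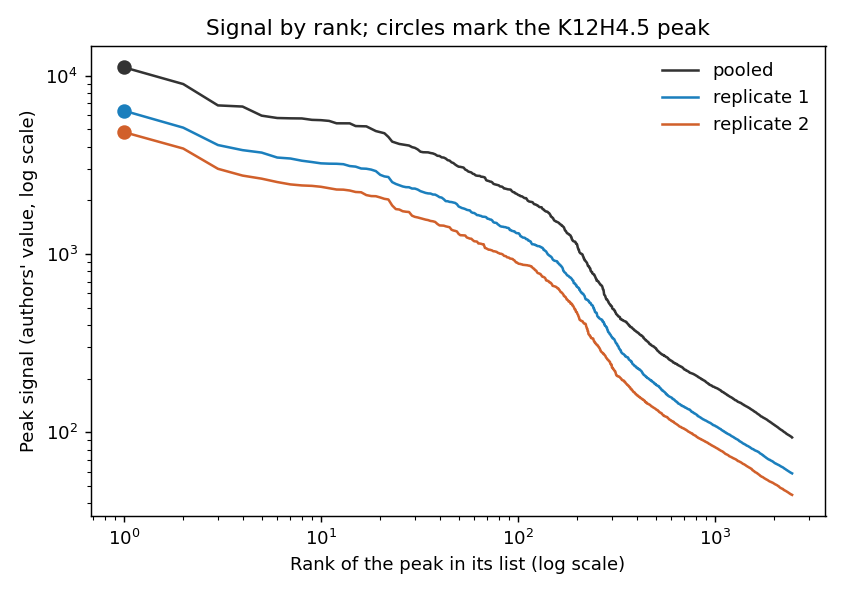
Peak signal (vertical axis, authors' value, log scale) against the rank of each peak within its list (horizontal axis, log scale) for the first 2465 entries of the pooled list and of each replicate. The circles mark the K12H4.5 peak, at 11118 in the pooled list, 6350 in replicate 1 and 4817 in replicate 2, above the curve of ranks 2 onward in each list.

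The summit at K12H4.5 fell on the same base in the thresholded, pooled and replicate lists. It was at 8043994 in both replicates, a spread of 0 bp over the lists. Over the 2439 nuclear thresholded peaks with an overlapping entry in both replicates, the median spread between the pooled, replicate 1 and replicate 2 summits was 37 bp, and 31 peaks (1.27%) had a spread of 0. Among the 94 nuclear peaks of the first 100 ranks the median was 5 bp, and 10 of them, K12H4.5 included, had a spread of 0. The strongest peaks thus had closely placed summits in general, and the exact coincidence at K12H4.5 was shared with 9 others of that rank range.

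The interval called at K12H4.5 was 942 bp wide in the pooled list, 962 bp in replicate 1 and 809 bp in replicate 2. The median width was 510, 596 and 510 bp in those lists. Every weaker entry within 5 kb of the gene had exactly the median width of its list, so these medians need not be measured breadths. At K12H4.5 the summit sat near the middle, with 455 bp to the left and 486 bp to the right in the pooled list. The interval stopped 7 bp short of the start codon in the pooled list and 80 bp short in replicate 2. In replicate 1 it ended at position 8044501, inside the first bases of the coding sequence. By width the peak held rank 146 of the thresholded list, far lower than its rank by signal.

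Replicate 1 gave K12H4.5 a signal 1.32 times that of replicate 2. The same ratio had a median of 1.33 over the 2439 matched peaks, and 5% of them were below 0.769 and 5% above 2.15. Within the first 100 ranks the ratio had a median of 1.43 and ran from 1.27 to 1.64, so K12H4.5 lay toward its lower end. The pooled signal at K12H4.5 was 0.996 times the sum of both replicate signals, and over all matched peaks the median of that quotient was 0.985.

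**Figure D2:**
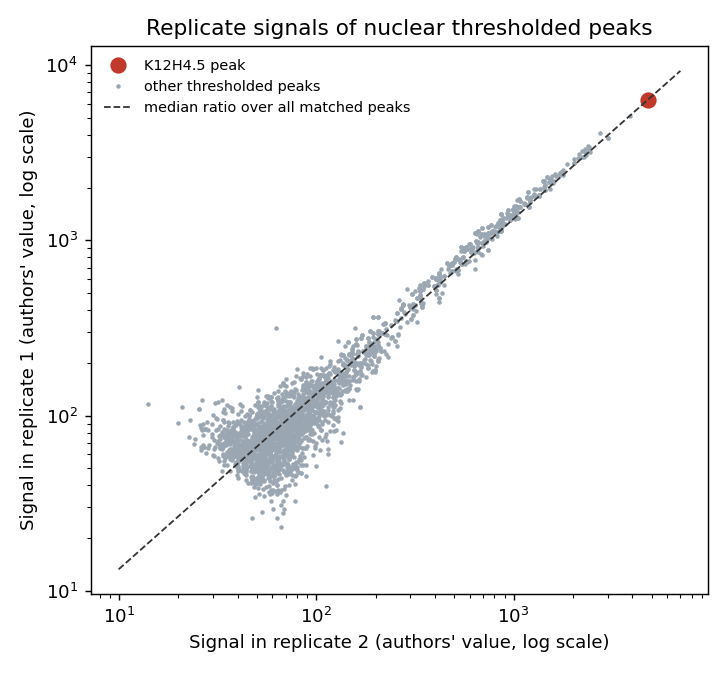
Signal in replicate 1 (vertical axis) against signal in replicate 2 (horizontal axis), both the authors' values on log scales, for the 2439 nuclear thresholded peaks matched in both. The K12H4.5 peak is the uppermost point, at 6350 and 4817, and it lies close to the dashed line of the median ratio of 1.33.

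On ce10 the same entry headed each list. Its interval there was chrIII:8043473-8044414 in the thresholded list, again 942 bp wide with the summit 455 bp from its left end, and its signal was 11118. The replicate signals on ce10 were 6354 and 4817. The positions of ce10 and ce11 are given as the lists have them and were not converted into each other.

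The summit lay 493 bp upstream of the K12H4.5 start codon. This was farther than at most genes with a peak in the promoter. Over the 1634 such genes the median distance was 250 bp, the middle 50% lay between 134 and 445 bp, and 78.4% had their summit closer than K12H4.5. Among the other strong peaks, the summit was 319 bp upstream of wip-1, which encodes a WASP-interacting protein of the actin machinery. At ntl-11, a CCR4-NOT deadenylase complex gene, it was 125 bp upstream, and at cpg-1, an eggshell proteoglycan gene, 244 bp upstream. At R06C1.4, whose peak is shared with the WAVE gene wve-1, it was farther than at K12H4.5, at 621 bp. Since K12H4.5 has no annotated UTR, its distance is counted from the start codon, and the position of its transcription start was not analysed here.

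A total of 7 genes, all protein-coding, overlapped the stretch from 5 kb upstream to 5 kb downstream of K12H4.5. K12H4.5 was the only 1 of these 7 genes with a thresholded summit in its promoter, against 8.18% of all protein-coding genes, and that count was fixed by the choice of the gene. To its left on the minus strand lay K12H4.6, another gene with a product that RefSeq leaves uncharacterized. The summit was 1119 bp upstream of K12H4.6, just outside the 1000 bp promoter limit, so the pair is arranged head to head around the peak. Farther left lay dpf-6, a gene of the dipeptidyl peptidase family, with its 3′ end toward the peak.

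To the right, K12H4.5 was followed by 3 more genes on the plus strand at short distances. First came spcs-3, for a subunit of the signal peptidase complex, which removes signal peptides from proteins entering the endoplasmic reticulum. It started 236 bp beyond the end of K12H4.5. Next was K12H4.3, whose product RefSeq names a homolog of the ribosome biogenesis protein BRX1, after a gap of 102 bp. Then, after 99 bp, came K12H4.2, named mals-1 by RefSeq after the assembly of the large subunit of mitochondrial ribosomes. This run of 4 genes, with each gap at most 300 bp, is of a kind that 107 of 17485 runs in the annotation reach or exceed (0.612%), counting a lone gene as a run. The end of K12H4.2 was overlapped by 15 bp by K12H4.7, a minus-strand gene that RefSeq calls a putative serine protease. The annotation used here does not mark operons, so whether these 4 genes form 1 was not analysed here. The summit lay 1023 bp upstream of spcs-3 and 2040 bp upstream of K12H4.3. With a promoter limit of 2000 bp, 3 of the 7 genes, K12H4.5, K12H4.6 and spcs-3, held the summit, against 10.6% of all protein-coding genes. These 3 hold the same summit, the one the gene was chosen for, so this count also follows from the choice.

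**Figure D3:**
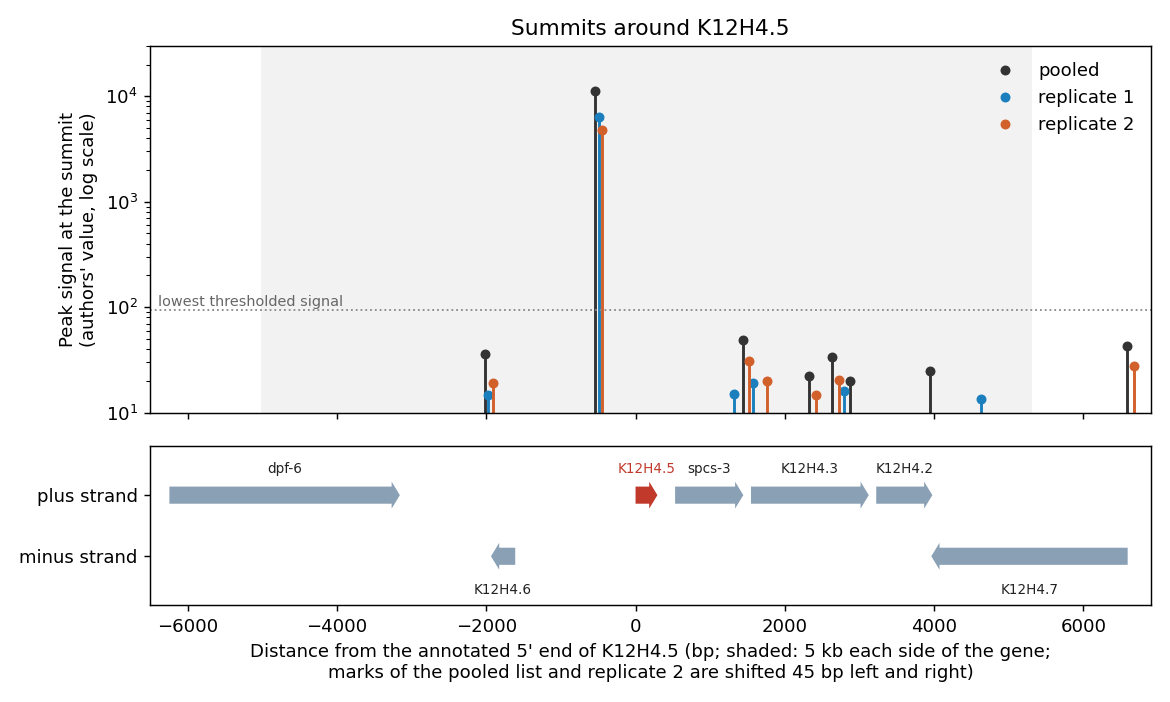
Signals of all summits near K12H4.5 in the pooled list and in each replicate (upper panel, authors' value, log scale) above the annotated genes (lower panel), by distance from the K12H4.5 5′ end in bp. The tall marks are the K12H4.5 summit, 493 bp upstream of the gene, and the other summits in the shaded 5 kb window are below the dotted line at 93.6, the lowest thresholded signal.

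No other thresholded summit lay within the window. The nearest was 22919 bp to the left, inside the annotated non-coding RNA gene F44B9.11, with a signal of 221.4 and rank 720. To the right the next was 57283 bp away, inside the annotated non-coding RNA gene C14B9.15, with a signal of 100.4 and rank 2246. The protein-coding genes with the nearest 5′ ends were the synMuv gene lin-36 on the left and the polo-like kinase gene plk-1 on the right. Over all 2449 nuclear thresholded summits the median distance to the nearest other was 3788 bp, and 79.8% had a closer one than K12H4.5 did.

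The relaxed lists, which hold background entries by design, had a few weak summits in the window. There were 6 beside the main summit in the pooled list, with signals from 19.8 to 48.6, 5 in replicate 1, from 13.6 to 19.2, and 5 in replicate 2, from 14.6 to 30.8. The lowest signals anywhere in those lists were 17.5, 13.0 and 10.7. The K12H4.5 summit exceeded the strongest of these weak summits 229-fold in the pooled list, 331-fold in replicate 1 and 156-fold in replicate 2. The strongest pooled one, at rank 6683, lay between spcs-3 and K12H4.3, 63 bp upstream of K12H4.3. Replicate 2 placed a summit within 14 bp of it, with a signal of 30.8, and the closest in replicate 1 was at position 8046055, with a signal of 19.2. A second weak summit, just past the 3′ end of K12H4.6, was at 8042509 in the pooled list, 8042516 in replicate 1 and 8042534 in replicate 2. Just outside the window, a summit at 8051122 upstream of K12H4.7 had a signal of 43.4 in the pooled list and 27.5 in replicate 2. Replicate 1 had none there.

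The DNA under the strongest peaks shared a short sequence, and K12H4.5 carried inexact copies of it. The sequence was taken from the 94 nuclear summits among the 100 ranks after K12H4.5, which was itself left out. The 8-base word GCGCCAGC, read on either strand, lay within 50 bp of 47 of those 94 training summits and in 0 of their 188 flanking windows. The word was chosen for this contrast, so these counts describe the choice. Over all nuclear thresholded summits, the training summits included, 4.86% held it, against 0.327% of 4898 flanking windows. The K12H4.5 window held no exact copy on either strand. It held 2 copies with 1 mismatch, both on the minus strand. The first was centred 8.5 bp to the left of the summit and read GCGCAAGC, a C5A change counted from the 5′ end of the word, and the second was centred 34.5 bp to the right and read GCGCCAGT, a C8T change. At most 1 mismatch was found in 15.6% of summit windows and in 3.51% of flanks.

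The variant GCGCAAGC at the K12H4.5 summit recurred at other strong peaks. It lay within 50 bp of 7 of the 13 nuclear summits of ranks 2 to 16, as many as held GCGCCAGC. Its share was 17 of 81 in the rest of those 100 ranks, 11 of 142 from there to rank 250, 6 of 247 from there to rank 500 and 7 of 1965 beyond rank 500, and it was in 0.225% of flanks. For GCGCCAGC those shares were 40 of 81, 49 of 142, 12 of 247 and 11 of 1965. These counts use windows chosen by rank, some of which also served to choose the words, and are a description.

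A matrix of 30 positions, with the 8-base word at its centre and 11 bases on each side, scored how well each position resembled the strong sites as a whole. Positions were kept if their starts were at least 15 bp apart, so that no core is shared. The number of positions listed, 3, was a setting and not a count of sites. At K12H4.5 the 3 best were all on the minus strand, with their starts 25 and 18 bp apart. As each spans 30 bases, neighbouring stretches share some flanking bases. The first below, nearest the summit on its left, scored 7.60, the next 13.0 and the last 22.7, in units of log2 odds. Only the last passed the threshold of 15.9, the 99th percentile of the best scores in flanking windows. The sequences are printed to let these positions at K12H4.5 be read against each other. They run 5′ to 3′ on the minus strand of WBcel235, with the 8 core bases in capitals.
chrIII:8043971-8044000, minus: atccacgaaatGCGCAAGCtgagacatcgc
chrIII:8043996-8044025, minus: ttacgagaaatGTGTCAGTagaactatcca
chrIII:8044014-8044043, minus: agtcgagaaatGCGCCAGTtacgagaaatg

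All 3 listed positions at K12H4.5 had the bases gaaat directly before the core. The matrix that picked these positions scores those bases and the core, so shared bases were favoured by the choice. The first and last are the copies with 1 mismatch given above, which were found by the core alone. In the best sites of the 94 training windows, the base before the core was T in 49 and C in 36, and the 3 bases before that were mostly A, with A in 84, 85 and 56 sites from left to right. Within the core, G at position 3 was found in all 94 training sites, and the 3 stretches listed at K12H4.5 had it too. Position 5 was C in 77 sites and A in 15, the base of the first stretch. Position 8 was C in 70 and T in 19, the base of both other stretches. The middle stretch, with the core GTGTCAGT, differed from the word at 3 positions (C2T, C4T and C8T) and did not pass the threshold.

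The 9 next nuclear peaks ran to rank 12, since entries off the nuclear chromosomes hold some ranks between. The peak named here for ddp-1 also lay in the promoter of ttc-7. For comparison, the best sites at 7 of these 9 are printed in the same orientation, with the core in capitals.
wip-1, chrIII:5018311-5018340, plus: gcaccgagaacGCGTCAATaactagccctc
ntl-11, chrIV:15471636-15471665, minus: gcacgagaaacACGTCAACaaatcacaaag
hrpu-1, chrIV:15039720-15039749, plus: gcacgagaaacGCGTCAGCaacggttacaa
ddp-1, chrIII:1859729-1859758, minus: acaagagaaatGCGCCAGCaacctctcctt
cpg-1, chrIII:4489103-4489132, plus: gcacgcgaaacGCGCCAGCaacaatttttc
pcn-1, chrIV:4049674-4049703, plus: attcaaaaagtGCGCCAGCagtcgtccttt
knl-3, chrV:1868781-1868810, plus: cgacgagaaatGCGTCAGTgacggggttgg

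The best score at K12H4.5, 22.7, was not among the highest. It held rank 146 of 2449 nuclear thresholded summits, and 61 of those 94 summits, whose median was 24.4, scored higher. Of the 9 next nuclear peaks, 8 had a higher best score than K12H4.5, and wip-1 had a lower one. At wip-1 the best site scored 18.4, with 3 substitutions in the core (C4T, G7A and C8T), so both of the strongest peaks had cores that depart from the word. At ntl-11 it scored 22.7, the K12H4.5 value after rounding, also with 3 substitutions (G1A, C4T and G7A). The sites at ddp-1, a small mitochondrial import protein gene, cpg-1 and pcn-1, the gene of the replication clamp PCNA, had the exact word and scored 29.1, 31.0 and 24.6. Those at hrpu-1, which encodes a member of the hnRNP U family, and knl-3, a kinetochore gene, scored 28.6 and 23.4. At R06C1.4, whose site is not printed, the best score was 25.3 and 3 sites passed the threshold. The training summits built the matrix, so their scores are raised by construction, while K12H4.5 was not used.

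**Figure D4:**
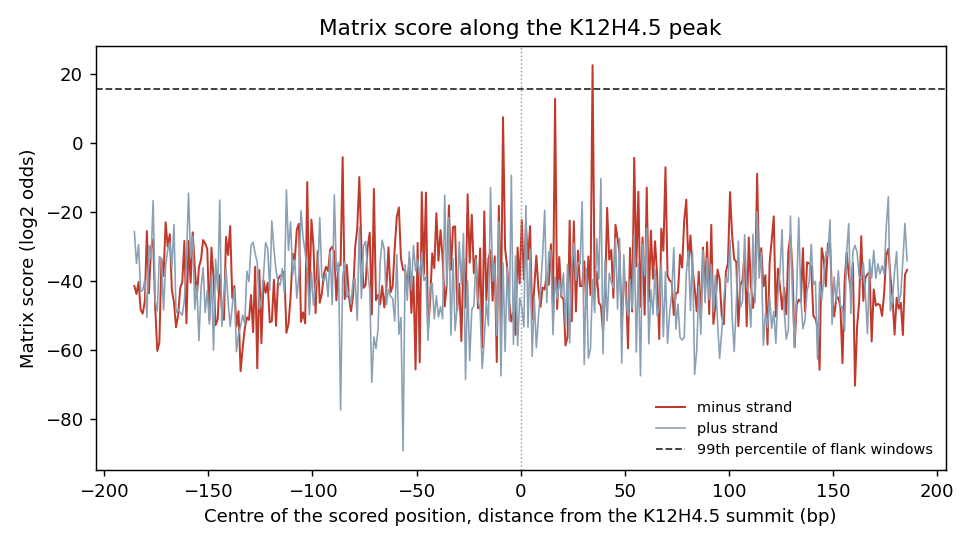
Matrix score in log2 odds (vertical axis) at each position along the K12H4.5 peak (horizontal axis, bp from the summit), minus strand in red and plus strand in grey. The 3 highest points, at 7.60, 13.0 and 22.7, are all on the minus strand and within 50 bp of the summit, and the last alone passes the dashed threshold of 15.9.

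Within 100 bp of the K12H4.5 summit 1 site passed the threshold, and the 1611 bp between K12H4.6 and K12H4.5 held no other. The same site was also the single one in the whole stretch of 10294 bp from 5 kb upstream to 5 kb downstream of the gene. At least 2 sites past the threshold were found at 44 of the 94 training summits and at 4.41% of all nuclear thresholded summits, while 9 of the 94 had none. Judged by its third-best position, which scored 7.60 against a training median of 2.70, K12H4.5 ranked 91 of 2449, and 31 of the 94 training summits were higher. All 3 best positions shared a strand at K12H4.5, as they did at 22 of the 94.

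**Figure D5:**
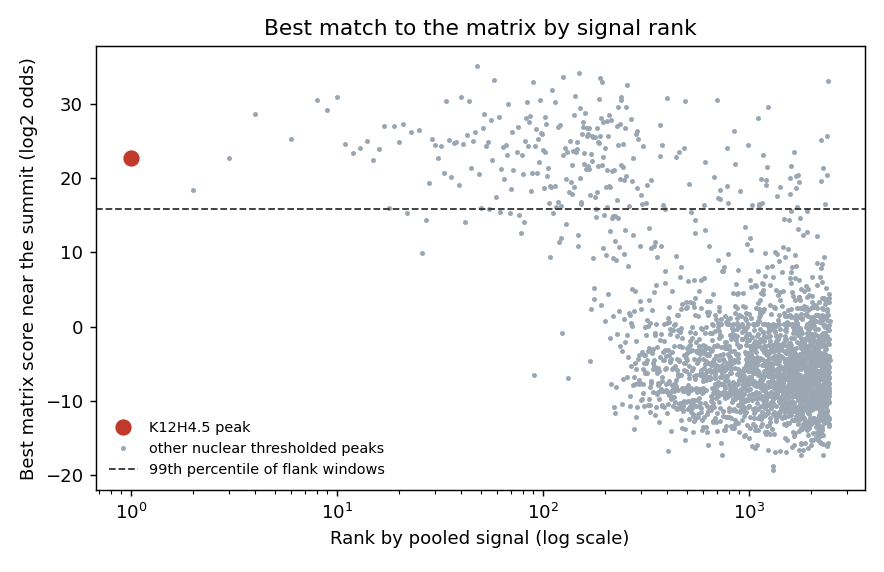
Best matrix score within 50 bp of the summit (vertical axis, log2 odds) against rank by pooled signal (horizontal axis, log scale) for the 2449 nuclear thresholded peaks. The K12H4.5 peak, in red at rank 1, scores 22.7, above the dashed threshold of 15.9 and below 61 of the 94 training peaks.

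The base content of the K12H4.5 summit window was ordinary for the list. Within 50 bp of the summit it was 46.5% G and C, against a median of 47.5% over all nuclear thresholded windows and 49.5% at the training summits. Its flanking windows had 38.6% on the left and 25.7% on the right, where the median flank had 35.6%.

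Among nuclear peaks, those most like K12H4.5 in signal were the next in rank. Likeness was measured as the distance between log2 signals over the pooled and both replicate lists, and the nearest was the peak at wip-1, at 0.539, followed by ntl-11 at 1.23, hrpu-1 at 1.26 and R06C1.4 at 1.64. These 3 lists come from 2 libraries, so the measure holds little beyond the signal ranks themselves.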

How the data were processed

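Chromatin immunoprecipitation with sequencing was done in both replicates by the study. The files hold the peak calls that the authors deposited, as narrowPeak tables on ce10 and on ce11. Per the notes deposited beside the files, each relaxed list came from an alignment and a control alignment, and the thresholded list came from the relaxed lists. For the aligner, the peak caller and the threshold, no name or value is given in the sources used here. The deposited peak signal has no stated scale, and the deposited −log10 q had 1 value over the whole thresholded list, so entries were ranked by signal. Read depth is unknown from these files.

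Summits were set against WBcel235 gene models of annotation release 115 and the RefSeq genome of that assembly. All peaks fell within its chromosome lengths. A promoter comprised the 1000 bp before a 5′ end and the first 200 bp after it. Replicate entries were matched by an overlap of at least 1 bp, taking the strongest.

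The 8-base word was the one whose count within 50 bp of the nuclear summits among the 100 ranks after K12H4.5 most exceeded the mean of windows centred 300 bp to either side, both strands counted together. The K12H4.5 summit was left out of that choice. A matrix of 30 positions started from 53 exact copies of the word with 11 bases on each side and was refined in 5 rounds on the best position of each window. Its threshold was the 99th percentile of the best scores in 4898 flank windows. The matrix was added after the data were seen. The word choice, scan and promoter rule were tested on simulated sequence.

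The gene, the lists and these measures were chosen with earlier results of these data known, and no test was run. Named genes are those within 5 kb and the nearest gene of the 9 next nuclear peaks. Of these, 1 is not reported here. Genes at the nearest thresholded summits (F44B9.11, C14B9.15, lin-36 and plk-1) fall outside that rule. Those sharing a peak (larp-1, wve-1 and ttc-7) do too, and all were named after their values were seen. Alternatives were other lists, builds, windows, gene assignments, overlap rules, words and matrix settings. Analyses used Python 3.11.15, numpy 2.4.6, pandas 2.3.3 and matplotlib 3.10.9.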

Additional observations from a re-analysis of the deposited data

How the results depend on the processing

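The K12H4.5 peak kept rank 1 and its distance of 493 bp under every alternative tried, and its ratio to the next peak stayed within the spread of both replicates. Without replicate 1 the signal was 4817 and without replicate 2 it was 6350, since the pooled value is close to their sum. In the relaxed pooled list 7 summits lay within 5 kb. There 4 of the 7 nearby genes held a summit, K12H4.5 by choice, against 39.0% of all protein-coding genes. With a 2000 bp promoter and the thresholded list 3 held one, the K12H4.5 summit in each case. The share of summits with the word was 4.002% within 25 bp, 15.5% for the best 6-base word (GCGCCA), 2.41% for the best 10-base word, 2.00% for the word from ranks 2 to 16 (GCGCAAGC, tied with GCGCCAGC) and 15.6% with 1 mismatch. Scored as 1 where the K12H4.5 window held the word and 0 where it did not, the result was 1 in place of 0 for the 6-base word, for GCGCAAGC and with 1 mismatch allowed, where 2 copies lay. The lists of single replicates gave shares of 5.03% and 4.78% and again 0 exact copies. The rank of the best matrix score, 146, was 166 and 175 with the matrix trained on the next 50 and 250 ranks and 133 without refinement, and 3 sites passed when the threshold was the 95th percentile of flank scores. The settings with 1 mismatch, those of the word by single replicate, and those of the exact word at K12H4.5 and of the matrix were chosen after seeing the data. The causes of these shifts were not tested. With 2 replicates the SD is loosely known, and read depth is unknown.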
